A study of Mus musculus with 8 samples.

Results

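Interferon-induced genes were followed in whole hearts of satiated and fasted mice. The set was given as a list of 34 gene symbols, named by symbol, with earlier results of these data known, of which 32 were matched to at least 1 probe through the accession of the probe, out of 18217 genes with a symbol on the array. No probe was matched to Mx1 and Mx2. The probes of Oas3 were dim, so 31 members entered the test, among 13816 tested genes with a symbol. Messenger RNA was measured on 8 one-colour Agilent arrays, 1 per heart, from male C57BL/6J mice 9 weeks of age. The 4 satiated mice had no treatment and were fed standard pellets, and the 4 fasted mice went without food for 2 days with water freely available. The question put to these genes was whether their transcripts differ in the heart after such a fast. Samples are numbered separately in each group, and nothing further says how animals were housed or handled, so the spread behind each p-value is that between these 8 samples and may in part be technical.

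Interferons are secreted proteins that cells release on sensing viral or bacterial nucleic acid. Type I interferons signal through Janus kinases to a complex that contains Stat2 and Irf9 and binds interferon-stimulated response elements in promoters. Interferon gamma, the type II interferon made by T cells and NK cells, also signals through Janus kinases, to factors that bind gamma-activated sites. The genes switched on include sensors of foreign RNA, enzymes that degrade or modify it, proteins that trap virus particles at membranes, and GTPases that attack vacuoles holding microbes. Many members respond to both kinds of interferon. By textbook assignment, Irf1, Irf8, Gbp2, Gbp3, Igtp and Irgm1 were taken as gamma-induced and the other 28 as type I members.

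Upstream sequences show where the elements of the interferon pathway lie in some members. RefSeq windows of assembly GRCm38.p6, 250 bases before to 50 after an annotated transcript start, were matched for 28 members, all but Dhx58, Usp18, Oas2, Mx1, Mx2 and Ifi27. An interferon-stimulated response element was searched as GAAA, any 2 bases, GAAA on both strands, and a gamma-activated site as TTCNNNGAA, which is its own reverse complement. Matches of the first motif can overlap one another, and both motifs can overlap, as they do in Bst2. Of the 28 members, 16 held the response element motif, against 3.99% of all 27025 genes with a window and 3.44% of all 32851 windows. The gamma site motif was present in 9 of the 28, against 9.55% of genes and 8.30% of windows. Divided by class, 12 of 22 type I members and 4 of 6 gamma-induced members held the response element, and 6 and 3 held the gamma site. Shown are the 150 bases just before the start for the 4 members that changed with fasting and hold the response element there (Bst2, Oas1a, Gbp3 and Rsad2), for Isg15 and Ifit1 as members with several matches that did not pass the test, and for Irf1 as a gamma-induced member with a gamma site alone. Capitals mark the motif matches, and each run reads 5′ to 3′ on the strand of the gene.
Bst2, chr8:71537473-71537622, minus strand: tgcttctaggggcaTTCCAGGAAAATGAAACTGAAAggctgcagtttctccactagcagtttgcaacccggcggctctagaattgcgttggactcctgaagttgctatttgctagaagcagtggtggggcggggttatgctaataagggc
Oas1a, chr5:120907526-120907675, minus strand: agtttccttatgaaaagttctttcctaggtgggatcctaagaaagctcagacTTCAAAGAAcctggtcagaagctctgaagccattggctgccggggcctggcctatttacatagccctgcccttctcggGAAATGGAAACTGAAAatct
Gbp3, chr3:142559894-142560043, plus strand: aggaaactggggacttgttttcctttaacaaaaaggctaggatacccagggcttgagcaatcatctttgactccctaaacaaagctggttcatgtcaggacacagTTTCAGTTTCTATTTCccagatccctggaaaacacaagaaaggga
Rsad2, chr12:26456453-26456602, minus strand: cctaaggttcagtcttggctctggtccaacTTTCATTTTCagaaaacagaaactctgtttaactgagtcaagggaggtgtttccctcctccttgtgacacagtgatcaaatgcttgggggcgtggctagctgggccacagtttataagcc
Isg15, chr4:156200819-156200968, minus strand: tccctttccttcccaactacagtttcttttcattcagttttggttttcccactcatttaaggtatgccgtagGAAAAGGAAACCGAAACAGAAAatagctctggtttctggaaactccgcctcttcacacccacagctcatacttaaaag
Ifit1, chr19:34640739-34640888, plus strand: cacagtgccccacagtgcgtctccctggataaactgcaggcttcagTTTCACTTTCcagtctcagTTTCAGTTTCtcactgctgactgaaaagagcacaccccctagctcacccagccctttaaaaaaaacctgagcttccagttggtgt
Irf1, chr11:53769864-53770013, plus strand: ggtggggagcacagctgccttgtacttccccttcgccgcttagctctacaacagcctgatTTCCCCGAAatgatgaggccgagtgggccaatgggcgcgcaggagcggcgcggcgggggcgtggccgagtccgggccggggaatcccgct
In Bst2 the motif began 130 and 124 bases before the start, in Isg15 78, 72 and 66 bases before it, and in Oas1a 20 and 14 bases before it. The matches of Ifitm3 lay after the start, and Ifit2 and Irf9 held no response element motif in their windows. A match describes the letters of a window and is no measure of binding.

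After 2 days without food the interferon-induced genes did not move in 1 direction. Bst2, which tethers budding virus particles to the cell surface, was 2.03-fold lower in the fasted hearts, and Oas1a, Gbp3, Irf9 and Ifitm3 also fell, whereas Ifit2 and Rsad2 rose. In all, 7 of the 31 tested members passed the limma test (p adjusted by Benjamini and Hochberg's method over all features, threshold 0.05). Of these 2 were higher and 5 lower, against 20.2% of all 20203 tested genes and unnamed probes called (9.82% higher and 10.3% lower). The members' share lay close to this background and is not a result about the set. The values of the 4 fasted hearts lay wholly above those of the 4 satiated hearts for 4 members and wholly below them for 5, against 27.6% of all features not overlapping, 13.3% with the fasted hearts higher and 14.3% with them lower. The median log2 change of the members, fasted minus satiated, was -0.19, with values from -1.02 (Bst2) to 0.90 (Ifit2), and that of all tested features -0.0042.

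The arrays lay on 2 slides of 4, scanned separately, each with 2 hearts of each group. With the slide as a block 14 members passed, 5 higher and 9 lower, against 35.5% of all features (17.1% higher and 18.4% lower). The added members were Ddx58, Irf1, Isg15 and Ifi44, lower, and Irf8, Trim25 and Ifitm1, higher. Within slide 1 the members' median was -0.08 and within slide 2 it was -0.43. Same-numbered hearts shared a slide, and the fit blocked on the replicate number passed 11 members, 5 higher and 6 lower, against 32.1% of all features (15.4% higher and 16.7% lower). Of the 7 members called above, all 7 passed under either block. Leaving out the array of satiated replicate 1 gave 4 calls, that of satiated replicate 2, satiated replicate 3 or fasted replicate 2 gave 3, and that of satiated replicate 4 gave 2. Over the 8 arrays left out in turn, 12.3% to 18.3% of all features passed.

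**Figure D1:**
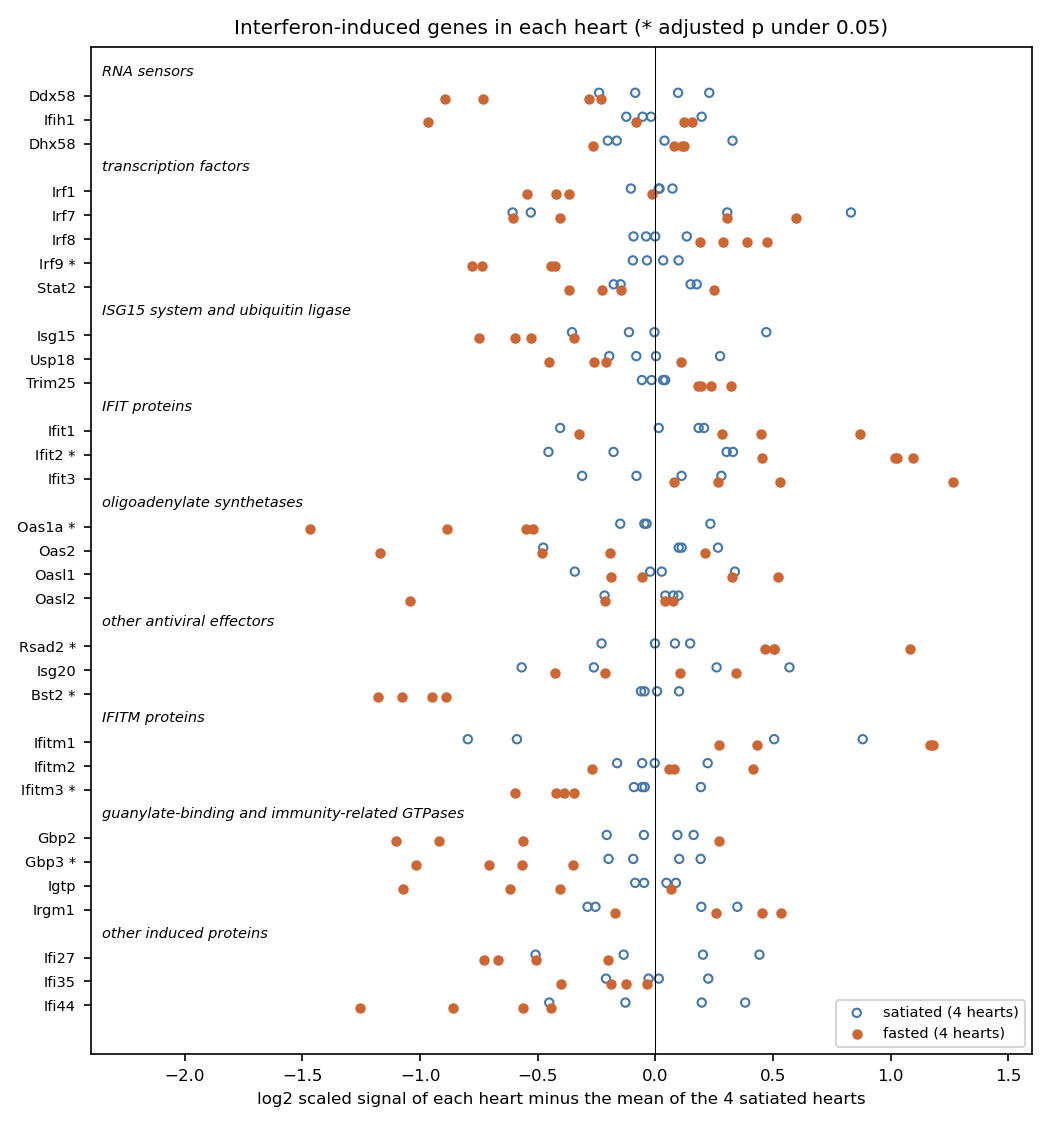
Log2 scaled signal of each heart minus the mean of the 4 satiated hearts (x axis, log2 units) for the 31 tested members, grouped by role; open circles are satiated and filled circles fasted hearts, and an asterisk marks an adjusted p under 0.05. The fasted values of Bst2 lie about 1 unit below the satiated ones with no overlap, and those of most other members overlap the satiated values.

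Values below are scaled signals, the probe's signal as a percent of the 75th percentile of all probes on its array, and hearts are given in the order of replicates 1 to 4. Levels of different genes are not comparable on this scale, because each comes from its own probe. Changes are log2 values, fasted minus satiated, ± SE (4 hearts per group).

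Transcription factors carry the interferon signal to the genes. Irf9, the DNA-binding subunit of the type I complex, read 123, 118, 135 and 129 in the satiated hearts and 92.8, 75.7, 73.4 and 93.9 in the fasted hearts. Every fasted heart lay below every satiated heart. The change of Irf9 was -0.60 ± 0.13 (limma, adjusted p = 0.0144), with -0.53 on slide 1 and -0.67 on slide 2, and it passed whichever array was left out (adjusted p = 0.0206 to 0.046). A second, dimmer probe of Irf9, well above background on 4 of 8 arrays, gave -0.89 ± 0.41 and did not pass (adjusted p = 0.168 over all probes). Stat2, the partner of Irf9 in that complex, read 112, 110, 87.7 and 89.5 in satiated and 118, 89.7, 84.8 and 76.9 in fasted hearts. The groups overlapped for Stat2 (-0.12 ± 0.17, adjusted p = 0.665).

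The interferon regulatory factors differed among themselves. Irf8, a factor of macrophages and B cells, read 106, 124, 110 and 113 in satiated and 129, 157, 148 and 138 in fasted hearts, so that all fasted hearts were higher. Its change of 0.34 ± 0.11 did not pass (adjusted p = 0.0744, and 0.034 with a slide block and 0.0312 with a replicate block). The second probe of Irf8 gave 0.40 ± 0.19 with overlapping groups. Irf1, the early interferon gamma-induced factor, read 877, 911, 875 and 806 in satiated and 857, 671, 594 and 646 in fasted hearts. Of the fasted hearts only the first reached the satiated range for Irf1, and the change of -0.34 ± 0.14 did not pass (adjusted p = 0.124, and 0.0445 with a slide block). Irf7, the master factor of type I interferon induction, read 12.7, 13.4, 34.4 and 23.9 in satiated and 12.7, 14.6, 29.3 and 23.9 in fasted hearts. Irf7 differed by slide in both groups, with both values of slide 2 above both of slide 1, and its difference between the groups was -0.03 ± 0.39 (95% confidence interval -0.92 to 0.87).

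RNA sensors detect viral RNA in the cytosol. Ddx58, the sensor RIG-I, read 29.6, 27.0, 23.8 and 21.4 in satiated and 20.8, 21.5, 13.6 and 15.2 in fasted hearts. The groups met at a single pair of values, and the change of -0.54 ± 0.19 did not pass (adjusted p = 0.0811, but 0.00522 with a slide block and 0.0209 with the replicate block). Centring each array on its median also brought Ddx58 past the threshold (adjusted p = 0.0381), as did the deposited ratios (0.0374). Of the other probes of Ddx58 1 fell with non-overlapping groups (-0.73 ± 0.17, adjusted p = 0.0216 over all probes), 1 gave -0.20 ± 0.21, and 1 was not well above background on any array. Ifih1, the sensor MDA5 of long double-stranded RNA, gave -0.19 ± 0.25 (adjusted p = 0.64). Its fasted values were 101, 98.6, 46.5 and 85.8, so that fasted replicate 3 stood below the rest. Dhx58, the related helicase LGP2 that lacks the signalling domain, gave 0.01 ± 0.16 (95% confidence interval -0.35 to 0.38).

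The ISG15 system attaches a small ubiquitin-like protein to other proteins. Isg15 itself read 72.8, 86.1, 129 and 92.8 in satiated and 73.2, 55.4, 61.6 and 64.6 in fasted hearts. Of the fasted hearts 3 lay below all satiated hearts, and the change of -0.55 ± 0.19 did not pass (adjusted p = 0.0728, and 0.0392 with a slide block). Usp18, the protease that removes ISG15 and damps the type I receptor, gave -0.20 ± 0.16 (adjusted p = 0.425), with 0.02 on slide 1 and -0.43 on slide 2. Trim25, a ubiquitin ligase that acts on RIG-I, read 464, 483, 451 and 480 in satiated and 532, 586, 552 and 537 in fasted hearts. All fasted hearts were higher for Trim25, but the change was small (0.23 ± 0.10) and did not pass (adjusted p = 0.14, and 0.0474 with a slide block). A second, dimmer probe of Trim25 gave -0.15 ± 0.32 with overlapping groups.

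IFIT proteins bind viral RNA with foreign 5′ ends, and their genes lie together on chromosome 19. Ifit2 read 48.9, 48.0, 34.4 and 28.4 in satiated and 78.9, 79.3, 83.2 and 53.2 in fasted hearts. Every fasted heart was higher, the fourth by the least. Ifit2 rose 1.86-fold (0.90 ± 0.23, adjusted p = 0.0265), and its second probe rose as well (0.95 ± 0.25, adjusted p = 0.0305 over all probes). The call of Ifit2 was lost without satiated replicate 3 or 4 or fasted replicate 1, 2 or 3 (adjusted p = 0.0594 to 0.0689). Ifit3 read 193, 169, 217 and 144 in satiated and 258, 215, 429 and 189 in fasted hearts. The highest fasted value of Ifit3 was that of replicate 3, and the change of 0.53 ± 0.26 did not pass (adjusted p = 0.195, and 0.0406 with the replicate block). Ifit1 gave 0.32 ± 0.26 with overlapping groups (adjusted p = 0.436), at 44.0, 43.3, 38.5 and 28.8 in satiated and 69.7, 46.4, 52.1 and 30.4 in fasted hearts. On both slides the mean change of each of the 3 IFIT genes was above 0, from 0.26 to 1.09, but only Ifit2 passed. Ifit3 has a near-identical copy, Ifit3b, and a probe may read both. The probe matched to Ifit3b gave 0.55 ± 0.21 with overlapping groups (adjusted p = 0.104).

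Oligoadenylate synthetases make the messenger that activates RNase L on double-stranded RNA, and the 5 members of this family are encoded on chromosome 5. Oas1a read 45.2, 54.9, 45.5 and 42.1 in satiated and 32.6, 25.3, 16.9 and 31.9 in fasted hearts. All fasted hearts were lower, the third by the most. Oas1a fell 1.81-fold (-0.85 ± 0.22, adjusted p = 0.0288). That call was lost without any 1 of the satiated replicates or without fasted replicate 2 (adjusted p = 0.0565 to 0.0798). Oas1a has close copies in the genome, so cross-hybridisation between them was not separated. The related gene Oas1c rose, with all fasted hearts higher (0.63 ± 0.18, adjusted p = 0.043). Another relative, Oas1g, was not well above background on any array. Oas2 read 128, 115, 114 and 76.5 in satiated and 123, 93.1, 47.3 and 76.3 in fasted hearts, overlapping ranges with a change of -0.41 ± 0.30 (adjusted p = 0.379). Oasl2, an OAS-like protein with ubiquitin-like domains, gave -0.28 ± 0.25 (adjusted p = 0.475), and its fasted values of 128, 107, 60.3 and 131 set replicate 3 apart. Oasl1, which limits translation of Irf7, gave 0.15 ± 0.21 (adjusted p = 0.666). Oas3 was well above background on 1 of the 8 arrays, a satiated one, and was not tested; with signals from 1.05 to 1.87 no fold is given.

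Among the other antiviral effectors the clearest member of the set was found. Bst2, the membrane protein tetherin, read 911, 972, 878 and 869 in satiated and 469, 490, 430 and 400 in fasted hearts. The lowest satiated heart stood far above the highest fasted heart. Bst2 fell 2.03-fold (-1.02 ± 0.11, adjusted p = 0.00118), with -0.97 on slide 1 and -1.07 on slide 2 and -1.07 to -0.97 when each array was left out in turn. Rsad2, viperin, which makes a chain-terminating nucleotide, read 175, 165, 183 and 141 in satiated and 234, 350, 234 and 228 in fasted hearts. All fasted hearts were higher and the second stood apart from the other 3. Rsad2 rose 1.56-fold (0.64 ± 0.17, adjusted p = 0.0334). Its call was lost without satiated replicate 1, 2, 3 or 4 or fasted replicate 1 (adjusted p = 0.0554 to 0.0939). The other 2 probes of Rsad2 gave 0.43 ± 0.31 and 0.39 ± 0.20 with overlapping groups, and the mean of its 3 probes did not pass (adjusted p = 0.157). Isg20, an exonuclease that degrades single-stranded RNA, gave -0.05 ± 0.28 (95% confidence interval -0.68 to 0.58), with 0.25 on slide 1 and -0.35 on slide 2.

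IFITM proteins lie in the plasma and endosomal membranes and block fusion of viruses, and their genes form a cluster on chromosome 7. Ifitm3 read 1240, 1510, 1270 and 1280 in satiated and 1040, 986, 1010 and 874 in fasted hearts. The groups did not overlap, and Ifitm3 fell 1.35-fold (-0.44 ± 0.12, adjusted p = 0.0336), by 0.44 on each slide. The call of Ifitm3 was lost on leaving out any satiated array or fasted replicate 1, 2 or 4 (adjusted p = 0.0605 to 0.0937). Ifitm1 read 183, 141, 66.1 and 57.2 in satiated and 225, 223, 134 and 120 in fasted hearts. Within each slide both fasted hearts were higher, but the slides differed by more, so Ifitm1 did not pass (0.76 ± 0.41, adjusted p = 0.237) except in the fits blocked on the slide (adjusted p = 0.00859) or on the replicate number (0.0229). Ifitm2 gave 0.07 ± 0.17 (95% confidence interval -0.31 to 0.45), and its second probe 0.10 ± 0.19. Among these neighbouring genes the only call of the test was thus the decrease of Ifitm3.

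GTPases of the guanylate-binding and immunity-related families act against microbes inside vacuoles and are strongly induced by interferon gamma. Gbp3 read 245, 261, 199 and 214 in satiated and 179, 140, 154 and 113 in fasted hearts. All fasted hearts lay below all satiated ones, and Gbp3 fell 1.58-fold (-0.66 ± 0.17, adjusted p = 0.0271). The call was lost without satiated replicate 1, 2 or 4 or fasted replicate 2 or 4 (adjusted p = 0.0537 to 0.0776). Gbp2 read 279, 266, 241 and 216 in satiated and 301, 169, 116 and 132 in fasted hearts. Igtp read 487, 500, 534 and 549 in satiated and 541, 337, 246 and 390 in fasted hearts. For both genes the first fasted heart lay within or above the satiated range and the other 3 below it. Neither passed with all arrays (Gbp2 -0.58 ± 0.28, adjusted p = 0.195; Igtp -0.51 ± 0.22, adjusted p = 0.151), and both passed without fasted replicate 1 (adjusted p = 0.0224 and 0.0437). Irgm1, a GTPase that restrains the others on the cell's own membranes, gave 0.27 ± 0.21 (adjusted p = 0.425), and its second probe 0.25 ± 0.15.

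Ifi27, Ifi35 and Ifi44 have less settled functions and were not called. Ifi44 read 18.7, 33.3, 23.4 and 29.3 in satiated and 17.3, 10.7, 14.1 and 18.8 in fasted hearts. The groups met at the lowest satiated and the highest fasted value, and the change of -0.78 ± 0.24 came close to the threshold (adjusted p = 0.0514, and 0.0398 with a slide block). Ifi27, a small mitochondrial and nuclear membrane protein, gave -0.53 ± 0.22 (adjusted p = 0.134), with satiated values from 1350 to 2610 and fasted values from 1160 to 1670. Ifi35 gave -0.19 ± 0.14 (adjusted p = 0.385).

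**Figure D2:**
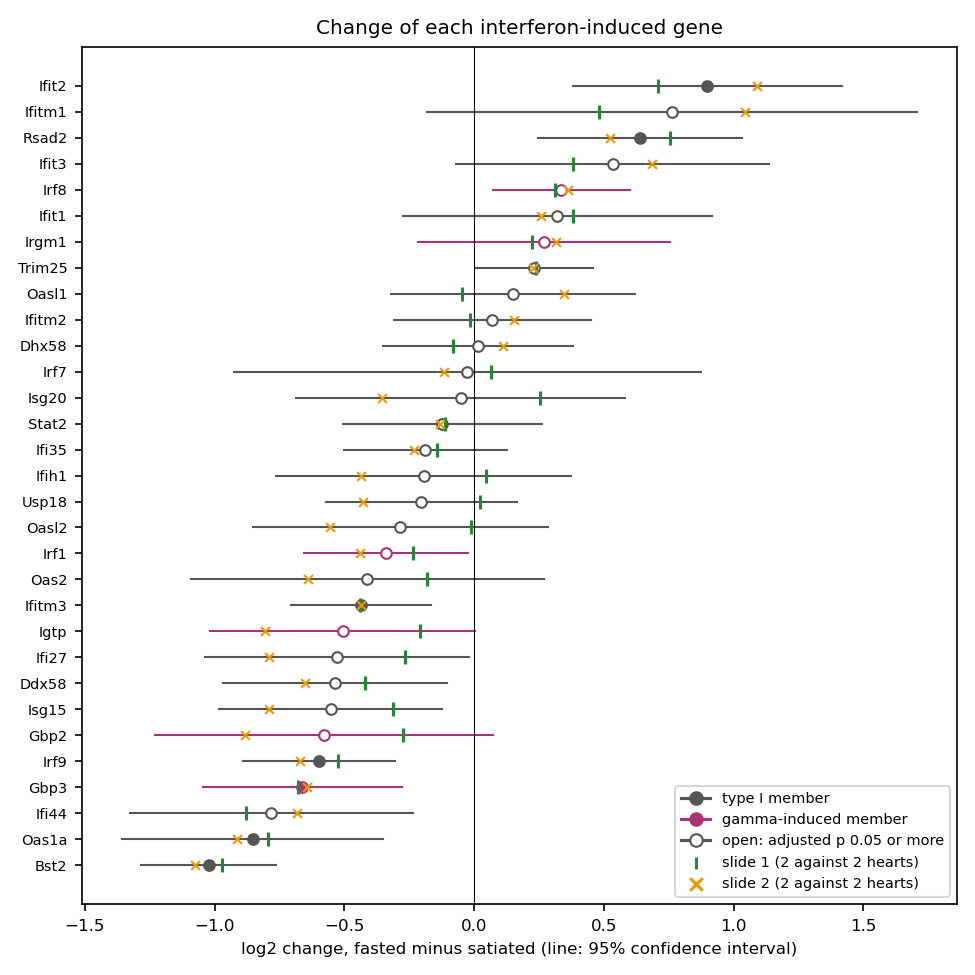
Log2 change of the 31 tested members, fasted minus satiated (x axis, log2 units), in order of size; lines are 95% confidence intervals, filled circles passed an adjusted p under 0.05, grey marks type I and purple gamma-induced members, green bars and orange crosses give the change on slide 1 and slide 2. The change of Bst2 is near -1 on both slides, while Isg20 has 0.25 on slide 1 and -0.35 on slide 2.

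Type I and gamma-induced members were then set side by side. Of 25 tested type I members 2 rose, 4 fell and 19 did not pass, with a median change of -0.19, and -0.05 on slide 1 and -0.35 on slide 2. Of 6 gamma-induced members, Gbp3 fell and 5 did not pass, with a median of -0.42, and -0.22 on slide 1 and -0.54 on slide 2. These counts stand beside 20.2% of all features called (9.82% higher and 10.3% lower) and are not a result about either class. Before adjustment, at p under 0.05 in limma, 3 type I members were higher and 8 lower, and 1 gamma-induced member was higher (Irf8) and 2 lower (Gbp3 and Irf1). At this threshold 16.5% of all features were higher and 17.3% lower, so 14 of 31 members stood beside 33.8% of all features. The median of all features was -0.0042 in the same fit. The difference between the classes was not tested, since the members were chosen with results of these data known.

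Each heart was also described by the median, over the members of a class, of its log2 signal minus the gene's mean of the 8 hearts. For the type I members this was -0.05, 0.19, 0.18 and 0.03 in the satiated hearts and 0.06, -0.03, -0.16 and -0.13 in the fasted hearts. For the gamma-induced members it was 0.18, 0.23, 0.16 and 0.07 in the satiated hearts and 0.24, -0.23, -0.31 and -0.28 in the fasted hearts. For the gamma-induced members fasted replicate 1 (0.24) thus lay barely above the highest satiated heart (0.23), and the other 3 fasted hearts were the lowest. Fasted replicate 1 held the highest value of the fasted group in 15 of the 31 members, against 20.2% of all features. Fasted replicate 4 held the lowest in 14, against 32.6% of all features, and fasted replicate 3 in 10, against 30.3%. In the satiated group replicate 4 held the lowest value in 15 members (27.3% of all features) and replicate 2 the highest in 13 (25.4%).

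**Figure D3:**
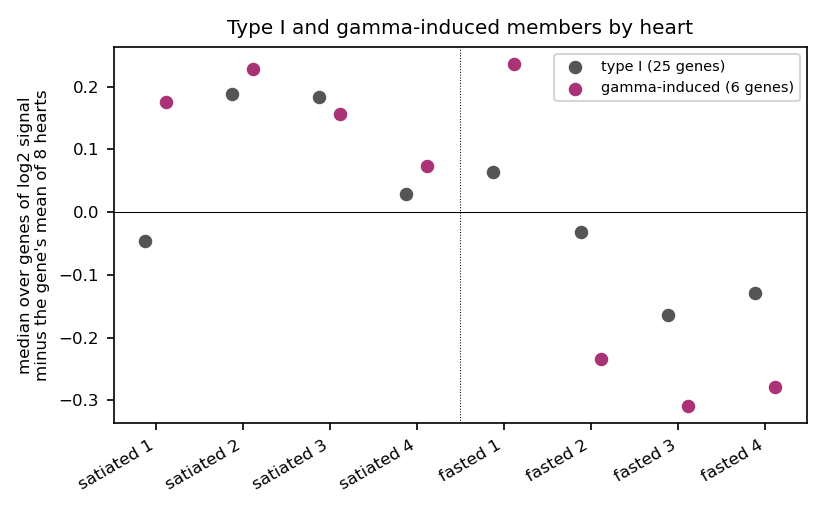
Median over the 25 type I (grey) and 6 gamma-induced (purple) members of the log2 signal minus the gene's mean of 8 hearts (y axis, log2 units), for each heart (x axis). The first fasted heart lies at 0.24 for the gamma-induced members, barely above the highest satiated heart at 0.23, and the other 3 fasted hearts lie between -0.31 and -0.23.

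The motif matches were set beside the changes. Of 15 tested members with a response element motif, Rsad2 rose and Bst2, Oas1a, Gbp3 and Ifitm3 fell, and the median change was -0.44. Of 12 tested members with a window but without this motif, Ifit2 rose and Irf9 fell, with a median of -0.04. The gamma site motif was found in 9 tested members (median -0.34), of which Ifit2 rose and Bst2, Oas1a and Ifitm3 fell, and 18 lacked it (median -0.07). Of all features, with or without a motif, 20.2% were called and the median was -0.0042. These counts describe the windows, were not tested, and are not a result about members with a motif.

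Genes that act before and beside the members were taken from lists by function. Among 17 receptors, kinases and regulators of the interferon pathway 2 rose, 1 fell and 14 did not pass. The share called over all features was 20.2% (9.82% higher and 10.3% lower). Ifngr2, the signalling chain of the interferon gamma receptor, read 3110, 3150, 2060 and 2300 in satiated and 1120, 1230, 556 and 807 in fasted hearts. It fell in every fasted heart below every satiated heart (-1.56 ± 0.27, adjusted p = 0.00685) and passed whichever array was left out. Ifngr1, the ligand-binding chain, gave 0.25 ± 0.18 (adjusted p = 0.372), and the type I receptor chains gave -0.01 ± 0.16 (Ifnar1) and 0.10 ± 0.11 (Ifnar2). Jak2, a kinase of the interferon gamma receptor, read 272, 260, 208 and 211 in satiated and 410, 407, 508 and 352 in fasted hearts and rose (0.82 ± 0.16, adjusted p = 0.0094). Socs3, an inhibitor of Janus kinase signalling that interleukin 6 induces, rose from between 216 and 306 to between 336 and 749 (1.02 ± 0.25, adjusted p = 0.0243). The call of Socs3 was lost without satiated replicate 1, 2 or 4 or fasted replicate 1 or 3 (adjusted p = 0.055 to 0.0632).

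The interferon genes themselves were mostly dim. Of 11 matched, 4 were tested and none passed in limma, with 0 at an unadjusted p under 0.05. The smallest p was that of Ifna9, -0.12 ± 0.14 (adjusted p = 0.599). Ifnb1 was not well above background on any array and Ifng on 1 of 8. Among 17 tested genes of nucleic acid sensing and interferon production 2 fell and 15 did not pass, beside 20.2% of all features called. Traf3, an adaptor on the way to interferon production, fell from between 183 and 220 to between 77.0 and 117 (-1.09 ± 0.15, adjusted p = 0.00258). Tlr3, the endosomal receptor of double-stranded RNA, fell (-0.65 ± 0.17, adjusted p = 0.0306), a call lost without satiated replicate 1, 2 or 4 or fasted replicate 1 or 4 (adjusted p = 0.0587 to 0.0818).

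A list of 42 further tested interferon-induced genes had 3 rising, 4 falling and 35 not passing, with a median of -0.14. Over all features 20.2% were called and the median was -0.0042. Cxcl9, an interferon gamma-induced chemokine, read 95, 124, 56.8 and 87.9 in satiated and 40.9, 33.0, 11.4 and 15.2 in fasted hearts. Every fasted heart lay below the satiated range, and Cxcl9 fell by 1.99 ± 0.43 (adjusted p = 0.0154). Uba7, the activating enzyme for ISG15, fell (-0.94 ± 0.20, adjusted p = 0.015), as did Ifi27l2a, a relative of Ifi27 (-0.68 ± 0.13, adjusted p = 0.00829). Plscr1, a phospholipid scramblase, rose (0.98 ± 0.18, adjusted p = 0.00819), from between 289 and 410 to between 502 and 805.

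Antigen processing and immunoproteasome genes, many of them induced by interferon gamma, were tested for 22 genes. Of these 2 rose, 6 fell and 14 did not pass, beside 9.82% of all features higher and 10.3% lower. H2-Ab1, the beta chain of a class II molecule, read 810, 808, 1110 and 1100 in satiated and 355, 373, 186 and 483 in fasted hearts and fell (-1.52 ± 0.29, adjusted p = 0.00902). H2-DMa, which loads peptides onto class II molecules, fell by 1.12 ± 0.26 (adjusted p = 0.0193), a call lost without satiated replicate 3 or 4 (adjusted p = 0.0531 and 0.0568). Cd74, the invariant chain of class II molecules, fell by 0.88 ± 0.24 (adjusted p = 0.0325), a call lost without satiated replicate 1, 2, 3 or 4 or fasted replicate 4 (adjusted p = 0.0505 to 0.0871). Erap1, a peptide-trimming protease, rose (0.38 ± 0.10, adjusted p = 0.0332), a call lost on leaving out any satiated array or fasted replicate 1, 2 or 4 (adjusted p = 0.0564 to 0.0907).

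**Figure D4:**
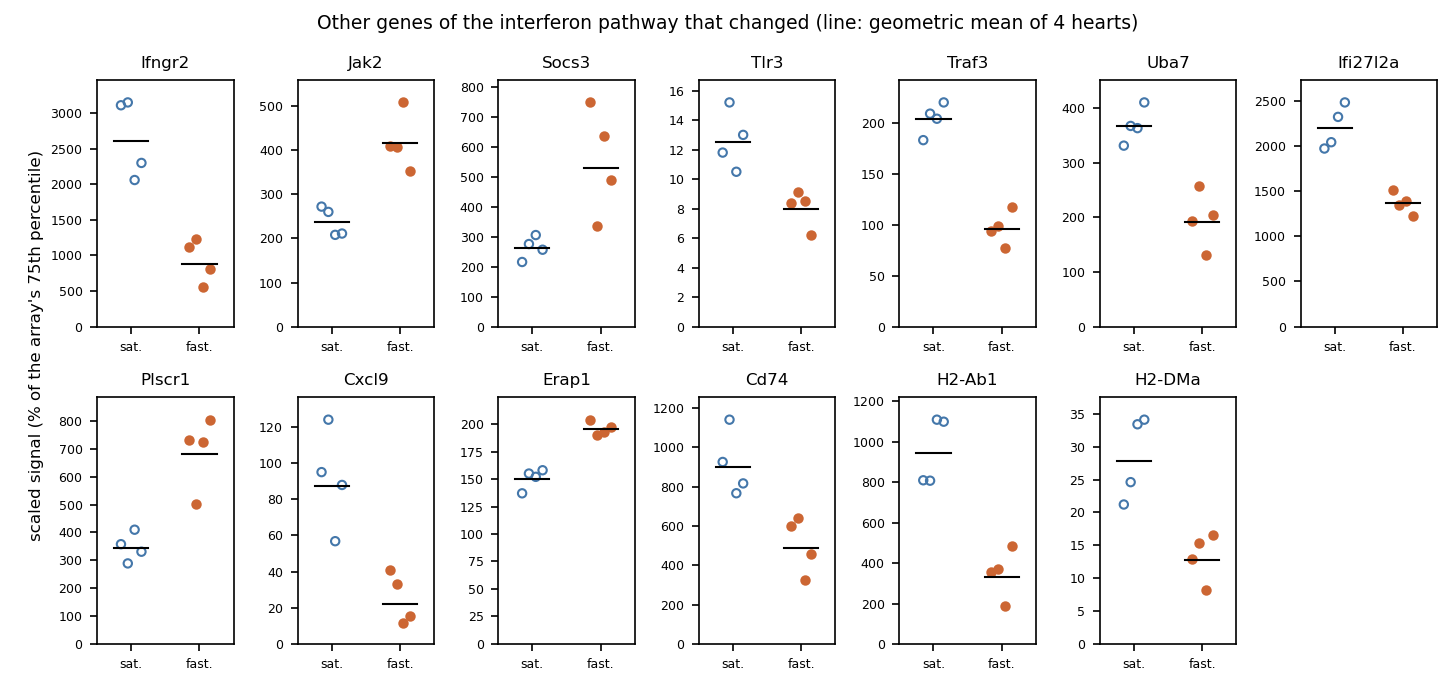
Scaled signal of each satiated (open) and fasted (filled) heart for 13 genes of the pathway lists. The y axis is percent of the array's 75th percentile, linear from 0, and lines are geometric means of 4 hearts. From each list, up to 4 genes with the smallest p that passed an adjusted p under 0.05 are drawn. Other genes of the lists that passed are not shown. Ifngr2, Traf3, Cxcl9 and H2-Ab1 lie lower in all fasted hearts, and Jak2, Socs3, Plscr1 and Erap1 higher.

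Markers of the cell types of the heart were read on the same arrays. The marker counts below stand beside 20.2% of all features called (9.82% higher and 10.3% lower). Summed signals add probes of unlike brightness, so each sum mostly follows its brightest probes and is no measure of cell number. All 7 cardiomyocyte markers, Myh6 and Tnnt2 among them, were well above background on all arrays, so the tissue matched its label; their summed scaled signal was 179000 to 243000 in satiated and 159000 to 230000 in fasted hearts, and Actc1 fell (-1.64 ± 0.13, adjusted p = 0.000355). In a whole heart, fewer cells of a type and less RNA per cell cannot be told apart. Of 10 tested macrophage markers 1 rose (Cd14), 1 fell (Fcgr1, itself an interferon gamma-induced gene) and 8 did not pass, with summed signals of 2920 to 3220 and 2600 to 3620. Cd14 gave 0.80 ± 0.24 (adjusted p = 0.0484) and Fcgr1 -0.99 ± 0.30 (adjusted p = 0.049), and the 2 calls were lost without 7 of the 8 arrays in turn for Cd14 (all but fasted replicate 3, adjusted p = 0.0606 to 0.12) and 6 for Fcgr1 (all but fasted replicates 2 and 3, adjusted p = 0.063 to 0.11). Fcgr1 also lost its call in the replicate block (adjusted p = 0.0614). Of 3 tested B cell markers 1 rose, Ms4a1 (1.55 ± 0.36, adjusted p = 0.0191, and 0.0529 without satiated replicate 2), with sums of 50 to 76.5 and 77.7 to 221. Of 3 tested neutrophil markers 2 rose, S100a8 (1.32 ± 0.34, adjusted p = 0.0288) and S100a9 (1.25 ± 0.37, adjusted p = 0.0489). Their sums, mostly S100a9, were 107 to 178 and 159 to 521. The call of S100a8 was lost without any 1 array but satiated or fasted replicate 3 (adjusted p = 0.0503 to 0.0776), and that of S100a9 without any but fasted replicate 3 (adjusted p = 0.0585 to 0.119) and in the replicate block (adjusted p = 0.0684). The plasmacytoid dendritic cell marker Siglech and the NK cell marker Ncr1 were not well above background on any array. None of 6 tested T cell markers passed in limma (0 at an unadjusted p under 0.05). None of 7 endothelial markers passed either, with 4 changes above 0, 3 below and a median of 0.09. Kdr had the smallest p of these in limma (-0.46 ± 0.15, adjusted p = 0.0679). Of 6 fibroblast markers 4 fell, among them Col3a1 (-2.56 ± 0.40, adjusted p = 0.00412), Lum and Col1a1, and Dcn rose. The call of Dcn was lost without satiated replicate 2 (adjusted p = 0.0505). That of Col1a1 was lost without satiated replicate 2 or 4 or fasted replicate 4 (adjusted p = 0.0548 to 0.0614). Of 3 smooth muscle markers Acta2 fell (-0.50 ± 0.13, adjusted p = 0.0292). Myh11 (0.28 ± 0.31) and Tagln (0.27 ± 0.15) did not pass and had changes above 0. The call of Acta2 was lost without 6 of the 8 arrays in turn (all but satiated replicate 1 and fasted replicate 3, adjusted p = 0.0658 to 0.081). None of 2 tested red cell, 2 plasmacytoid dendritic cell and 2 NK cell markers passed in limma, with 0 at an unadjusted p under 0.05. The part of these cells in the changes of the members was not tested.

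The depth behind these values was given by the arrays. Between 66.7% and 68.9% of probes were well above background on slide 1 and between 54.4% and 55.6% on slide 2, no probe was saturated, and 4 arrays per group limit the precision of every value. All 31 tested members were well above background on all 8 arrays.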

How the data were processed

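RNA of 8 hearts was read on 1-colour Agilent arrays of 45018 spots, 1639 of them controls. The processed signals are intensities from Agilent Feature Extraction that were background-subtracted within each array and not normalised between arrays, per the file headers. The submitters' processing notes name version 9.1 of that software, and the headers give 10.5.1.1 on slide 1 and 10.7.3.1 on slide 2, so slide, scan and version cannot be told apart. A deposited table of ratios, each linear and relative to a constant of its probe, served as an alternative only. How the authors made these ratios is not stated in the labels or the table.

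Outlier spots were dropped, spots of a probe averaged and log2 signals centred on the 75th percentile of the array. Of 41174 probes 26480 were well above background on at least 4 of 8 arrays. Symbols came from a RefSeq table (GRCm38.p6), matched through accessions: 26690 probes had 1 symbol, 0 several and 14484 none. The probe brightest over all arrays stood for a gene. All 20203 genes and unnamed probes were fitted with limma (lmFit and eBayes, version 3.58.1, R 4.3.3), two-sided, with Benjamini-Hochberg adjustment, and the code was checked on simulated data. Same-numbered hearts share a slide, and their deviations from the group means correlated at r = 0.439, 0.475, 0.33 and 0.493. All other pairs within a slide correlated likewise (0.29 to 0.522), so a pairing by number cannot be told apart from the shared slide. The main fit used no pairing, and the block on the replicate number served as an alternative only.

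Alternatives were a block for slide or replicate number, each slide alone, each array left out, normexp, quantile normalisation, median centring, no filter on dim probes, the mean of probes and the deposited ratios. Normexp used median spot signals with an offset of 50 where mean signals had been planned. The members and lists were chosen with earlier results of these data known. All members are named, and in each other list up to 4 called genes with the smallest p, or the 1 with the smallest p where none passed. Ifngr1, Ifnar1, Ifnar2 and the undetected genes were named beside them for the pathway, and Oas1c and Ifit3b as relatives of Oas1a and Ifit3. Cd79b, Myh11 and Tagln were named beside the called markers of their lists. A single gene of the receptor and signalling list is not reported here.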

Additional observations from a re-analysis of the deposited data

Results flagged for a closer look

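Log2 signals were examined in 62 groups of 4 hearts, 2 for each of the 31 tested members. The gap in log2 signal between the most extreme heart and its nearest neighbour was set against the range of the group. In 5 groups this share was above Dixon's 95% critical value, which chance exceeds in about 1 group of 20. Fasted replicate 4 stood low for Dhx58 (share 0.883, scaled signal 17.9) and for Ifit2 (share 0.882, scaled signal 53.2). Satiated replicate 1 stood low for Oasl2 (share 0.838, scaled signal 107). Fasted replicate 2 stood high for Rsad2 (share 0.934, scaled signal 350), and satiated replicate 2 stood high for Ifitm3 (share 0.868, scaled signal 1510). Without the array concerned Ifit2, Rsad2 and Ifitm3 kept their direction, and the call was lost for Ifitm3 alone among these 3.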

How the results depend on the processing

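The 20203 features gave 4073 calls and the members 7. With the slide as a block these were 7177 and 14, and with the replicate block 6486 and 11. Slide 1 alone gave 1883 and 2, and slide 2 alone 1 and 0 in limma, where 12 members and 26.4% of all features had an unadjusted p under 0.05. With dim probes kept the counts were 2225 and 1 (Bst2). Leaving out each array gave 2495 to 3690 and 2 to 6. On slide 1 the type I members had a median of -0.0479, on slide 2 one of -0.35, and -0.25 to -0.0872 with each array left out. The gamma-induced median was -0.22 on slide 1 and -0.57 to -0.29 with each array left out. Of 558 values of single members under these alternatives 473 kept direction and side of the threshold, 46 lost the call, 16 gained it and 23 turned sign, all of uncalled members. On slide 1 alone the signs of Ifih1 (0.0453), Dhx58 (-0.0823), Irf7 (0.0641), Usp18 (0.0209), Oasl1 (-0.0479), Isg20 (0.25) and Ifitm2 (-0.0156) turned, as did that of Irf7 with normexp (0.0246). With each array left out, Ifih1 ranged from -0.31 to 0.0624, Dhx58 from -0.0539 to 0.12, Irf7 from -0.23 to 0.25, Isg20 from -0.24 to 0.14 and Ifitm2 from -0.045 to 0.18. The block on the replicate number ended no call of a member and changed those of Ddx58, Irf8, Ifit3 and Ifitm1 alone. A single slide and each array left out hold fewer samples, and keeping dim probes adds features to the fit and to the adjustment. The cause of the differences was not tested. With 4 arrays per group, a change that did not pass is not shown to be absent.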
